A study of Homo sapiens with 5 samples.

Results

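The ADAM and ADAMTS metalloproteases were examined in IMR90, a fibroblast line from normal human lung. Members were the protein-coding genes of the deposited table whose symbol begins with ADAM and a digit, ADAMTS or ADAMDEC, without antisense genes. The rule found 42 of the 18568 genes in the table: 17 ADAM genes, ADAMDEC1, 19 ADAMTS genes and 5 ADAMTSL genes. Members were chosen by symbol, and the family itself was selected on the antagomir difference of ADAM32 in these libraries. The fold changes below therefore describe these libraries, the adjusted p-values come from fits over all tested genes, and the value of ADAM32 and the family's counts are not independent evidence.

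All libraries came from cells infected with a retrovirus expressing RASV12, an always-active RAS that drives fibroblasts into senescence, and selected with puromycin. Cells were seeded on day 10 after infection and transfected 24 hours later with an antagomir, an antisense oligonucleotide that blocks a microRNA. The groups were an antagomir against miR-146a (n = 3, libraries A, B and C) and a control antagomir (n = 2, libraries B and C). No library without RASV12 was analysed here, the level of miR-146a was not analysed here, and no label says that the libraries are separate cultures, so p-values measure only the spread between these libraries.

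ADAM proteins are membrane-anchored metalloproteases, and the catalytic ones act as sheddases that cut growth factors, cytokines, receptors and adhesion molecules off the cell surface. ADAMTS proteins are secreted relatives that bind the extracellular matrix and trim procollagens and proteoglycans such as versican and aggrecan. ADAMTS-like (ADAMTSL) proteins keep the matrix-binding modules and lack the protease domain. In fibroblasts these enzymes take part in matrix turnover and in the release of signals to neighbouring cells, and several belong to the proteins that senescent cells secrete or shed.

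The comparison asks which transcripts depend on miR-146a, which acts by pairing its seed, bases 2 to 8, with messages. The mature miRNA (chr5:160485372-160485393, plus strand, GRCh38.p14, sequence from RefSeq) is shown with the seed in capitals, followed by the matches in the 3′ UTRs of the members with an 8mer and of ADAMTS18, with the matching bases in capitals (GENCODE 29, GRCh38, the strand of the message).
miR-146a-5p: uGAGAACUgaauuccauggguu
ADAM17, 8mer, chr2:9490155-9490176, minus: tttAGTTCTCAgctcttctgac
ADAM17, 8mer, chr2:9488620-9488649, minus: atgagtgaaacAGTTCTCAaaagaatgtaa
ADAMTS6, 8mer, chr5:65149931-65149960, minus: ctcaacaccacAGTTCTCAaccctgagcct
ADAMTS18, 7mer, chr16:77282252-77282280, minus: gcctattatgtGTTCTCActtgcttctct
ADAMTS18, 7mer, chr16:77282731-77282759, minus: agtttaaaattGTTCTCAattgaaaaaac

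A set of 3 motifs was searched on the message strand of each gene's longest 3′ UTR: the 8mer AGTTCTCA, and the 7mers AGTTCTC and GTTCTCA where they were not part of an 8mer. Of the 42 members, 10 held a match (23.8%), against 18.0% of 7752 protein-coding genes in the table, and the median 3′ UTR had 1749 bases in the members and 1067 bases in all. The members with a match were ADAM10, ADAM17, ADAM19, ADAMTS3, ADAMTS4, ADAMTS6, ADAMTS8, ADAMTS13, ADAMTS15 and ADAMTS18, and an 8mer was found in ADAM17 and ADAMTS6 only. An 8mer was thus held by 4.76% of the members, against 3.93% of all these genes. ADAM32 had no match in its 3′ UTR of 110 bases, and ADAMTS1, ADAMTS5 and ADAMTS9 had none. Of the members with 7mers only, sequences are shown for ADAMTS18 alone, a gene that rose in a fit described below. A match is a run of letters and not a measured site.

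Both C libraries were set apart from the remaining 3. The first principal component of all tested genes held 53.4% of the variance and separated the C libraries, and the second held 29.3% and separated the antagomirs, so values by library and within each letter stand beside the fold changes. The rows analysed held 8430859 to 8748287 reads in the anti-miR-146a libraries and 8556206 and 9283950 in controls B and C, which are parts of each library. The fibroblast markers with a row (7 of 11, with COL1A1, COL1A2, COL3A1, DCN and FN1 high in each library) summed to 136775 to 166378 normalized reads with anti-miR-146a and to 126660 and 177031 in controls. Epithelial, endothelial and leukocyte markers with a row (15 of 22) summed to at most 95.1 reads per list and library, CDH1 had at most 0.944, and CD3E was at 0 throughout. The leukocyte sum was 59.7 to 68.5 normalized reads with anti-miR-146a and 43.8 to 48.7 in controls, and its part in the results was not tested. The endothelial sum was 95.1 in anti-miR-146a C and 79.3 in control C, against 37.4 to 47.2 in the other libraries, so it moved with the C libraries, and its part in their differences was not tested.

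Normalized reads are read counts divided by the library's size factor. Of the 42 members, 32 had at least 10 normalized reads in at least 2 libraries and were tested. The 10 others stayed at or below 6.07 normalized reads in every library: ADAM7, ADAM21 and ADAM30, which are known from epididymis or testis, the asthma-linked ADAM33, ADAMDEC1, ADAMTS15, ADAMTS16, ADAMTS20, ADAMTSL2 and ADAMTSL3. ADAMDEC1, a gene of gut macrophages, had 0 reads in each library, which allows up to 3 reads per library and covers counting error only. Nearest to the limit, ADAM22 passed with 10.1 in its second-highest library, and ADAM33 and ADAMTS15 did not with 5.60 each. ADAM11 reached 10 normalized reads only in anti-miR-146a A and B (11.3 and 16.4). ADAMTS17 did so only in anti-miR-146a A and C (10.4 and 11.1).

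Senescent fibroblasts in these libraries expressed a few members far above the rest. Per kilobase of merged exon, ADAMTS1, a secreted protease of versican and aggrecan, led with 2066 normalized reads with anti-miR-146a and 1795 in controls. ADAM9, a widely expressed sheddase, followed with 1007 normalized reads per kb with anti-miR-146a and 1220 in controls, and ADAM19, a sheddase of neuregulin, had 493 per kb with anti-miR-146a and 620 in controls. The principal sheddases ADAM10, which cuts Notch receptors and the amyloid precursor protein, and ADAM17, which releases TNF and ligands of the EGF receptor, had 284 and 187 per kb with anti-miR-146a and 329 and 195 in controls. In each library ADAMTS1 lay above ADAM9 and ADAM9 above ADAM19. Per kb, ADAM19 lay above ADAM10 in every library but control B, where it had 272 per kb and ADAM10 339. Merged exons span all annotated transcripts of a gene, so this order depends on the length used. In normalized reads ADAM10 lay above ADAM19 in anti-miR-146a A (4453 against 2290), anti-miR-146a B (4230 against 2229) and control B (5486 against 2099). ADAM10 lay below ADAM19 in both C libraries. The leading 5 members held 80.2% to 81.9% of the family's normalized reads with anti-miR-146a and 82.2% to 82.4% in controls. ADAM32 ranked as number 18 of 42, at 7.90 to 9.57 normalized reads per kb with anti-miR-146a and 26.6 to 31.4 in controls.

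**Figure D1:**
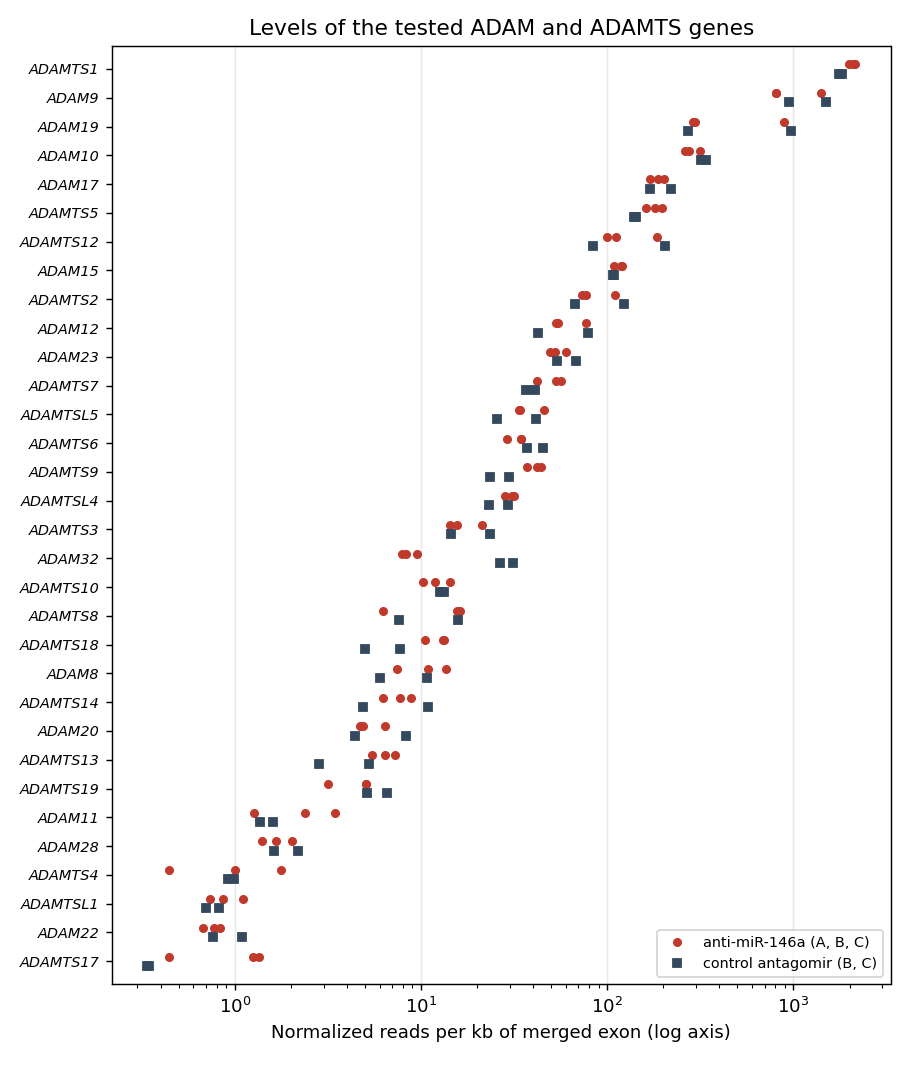
Normalized reads per kilobase of merged exon (log axis) for the 32 tested members, with 1 red circle per anti-miR-146a library (n = 3) and 1 dark square per control library (n = 2). ADAMTS1 lies highest, at 2066 with anti-miR-146a and 1795 in controls on average, and ADAM32 is the member whose groups stand farthest apart.

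ADAM32 fell with anti-miR-146a when the C libraries were a term of the model, and its antagomir difference was the largest in size among the 32 tested members. The gene (chromosome 8, 39106990 to 39284911, plus strand, GRCh38) encodes a membrane ADAM that lacks the residues for binding zinc and is known mainly from testis. It had 79.3, 83.1 and 96.1 normalized reads in anti-miR-146a libraries A, B and C, against 315 and 267 in controls B and C. Every anti-miR-146a library lay far below both controls. In bulk RNA such as this, fewer cells with a transcript and less of it per cell cannot be told apart. The mean was 0.296 times that of controls, with a log2 fold change of −1.74 (SE 0.17) on the log2(value + 1) scale. Within the letters the log2 difference was −1.91 for B against B and −1.46 for C against C. The shared sign follows from the groups not overlapping.

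With the antagomir as the only term, ADAM32 had the smallest p of the 6317 genes tested but an adjusted p of 0.235 in limma. Its adjusted p was 1.9e-05 in limma with a term for the C libraries, and DESeq2 without that term gave 1.52e-09, where it called 0.615% of the genes that it adjusted over. Leaving out anti-miR-146a C alone also brought it past the threshold in limma (adjusted p 0.0302), while leaving out any other single library gave 0.404 to 0.905. The neighbouring gene ADAM9 ends 1845 bases before ADAM32 starts, on the same strand, and it had 5594, 5550 and 9742 normalized reads in libraries A, B and C with anti-miR-146a and 6552 and 10315 in controls B and C. ADAM9 therefore split by the C libraries (C-library difference 0.74, SE 0.08, log2), where ADAM32 differed little between them (0.04, SE 0.15). ADAM5 is a transcribed pseudogene that starts 29679 bases past ADAM32 on the same strand and is not a member. It had 1.89, 3.65 and 3.03 normalized reads with anti-miR-146a and 9.54 and 10.3 in controls, too few for the limma filter. DESeq2 with the antagomir alone gave ADAM5 a log2 fold change of −1.79 (SE 0.99) and an adjusted p of 0.667.

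**Figure D2:**
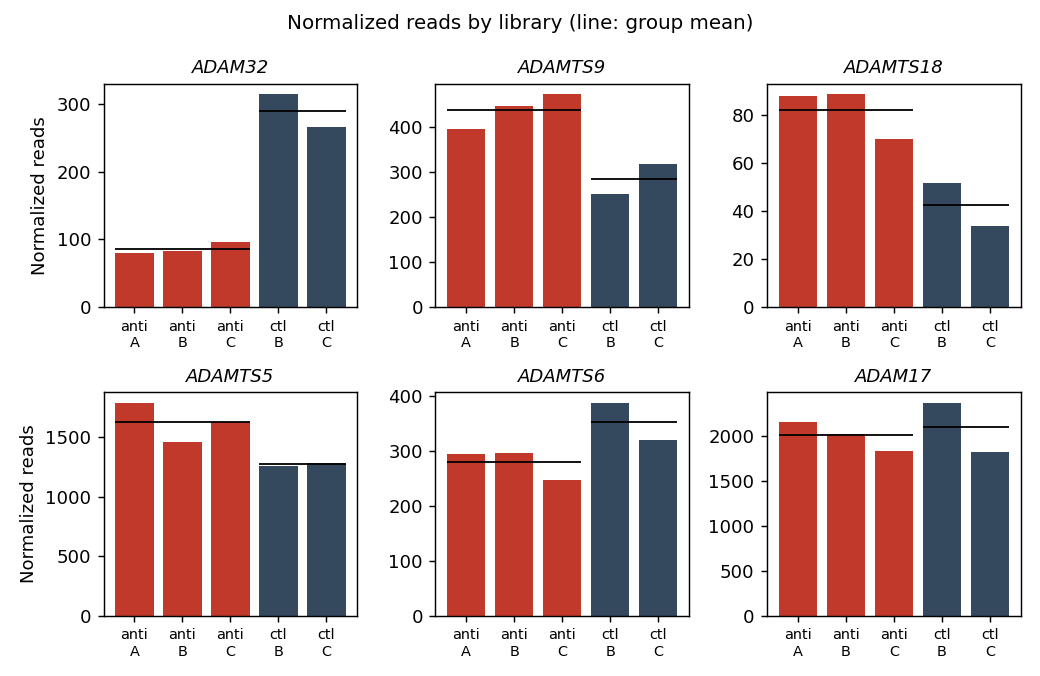
Normalized reads in each library for ADAM32, ADAMTS9, ADAMTS18, ADAMTS5, ADAMTS6 and ADAM17, with anti-miR-146a libraries A, B and C in red, controls B and C in dark blue and a line at each group mean. ADAM32 has 79.3 to 96.1 with anti-miR-146a and 267 to 315 in controls, while ADAM17 overlaps between the groups.

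None of the other 12 tested ADAM genes passed in limma on all 5 libraries, with or without the C term. ADAM10 had 4453, 4230 and 5082 normalized reads in anti-miR-146a libraries A, B and C, against 5486 and 5153 in controls B and C. All 3 anti-miR-146a libraries lay below both controls, but by a log2 fold change of only −0.22 (SE 0.12; adjusted p 0.53 in limma, 0.127 with the C term), and within the C letter the log2 difference was −0.02. ADAM17, with its pair of 8mers, had 2159, 2023 and 1835 normalized reads with anti-miR-146a, against 2365 and 1826 in controls. Its groups overlapped, and its log2 fold change was −0.05 (SE 0.15). ADAM15, a sheddase of epithelial and vascular cells, averaged 762 ± 41.7 normalized reads with anti-miR-146a and 715 ± 5.55 in controls (SD, n = 3 and n = 2). ADAM12, a protease of muscle and stromal cells, averaged 608 ± 134 normalized reads with anti-miR-146a and 599 ± 253 in controls. ADAM8, known from leukocytes, had 35.4 to 64.8 normalized reads with anti-miR-146a and 28.9 to 51.5 in controls. The catalytically inactive ADAM23, a partner of the secreted protein LGI1, averaged 347 ± 36.5 with anti-miR-146a and 389 ± 64.4 in controls. ADAM11, ADAM20, ADAM22 and ADAM28 had 6.07 to 18.9 normalized reads with anti-miR-146a and 6.53 to 23.3 in controls, and none had groups apart. ADAM20 and ADAM21 have close copies, among them ADAM20P1, so their reads are uncertain.

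Of the 5 tested proteoglycanases, 2 (ADAMTS9 and ADAMTS5) rose with anti-miR-146a once the C libraries were a term, where 8.64% of all tested genes did. ADAMTS9 (chromosome 3, 64515654 to 64688000, minus strand), which cuts versican, had 396, 448 and 473 normalized reads in anti-miR-146a libraries A, B and C, against 251 and 317 in controls B and C. Each anti-miR-146a library lay above both controls. Reads of ADAMTS9 could include some of its antisense genes, since no source says whether counting used strand. Its log2 fold change was 0.63 (SE 0.16; adjusted p 0.345 in limma), or 0.67 (SE 0.11; adjusted p 0.00136) with the C term, and the difference was 0.83 within B and 0.58 within C. ADAMTS5 (chromosome 21, 26917912 to 26966513, minus strand), the main aggrecanase of mouse cartilage, had 1785, 1460 and 1627 normalized reads with anti-miR-146a, against 1259 and 1286 in controls. Its groups did not overlap, and its log2 fold change was 0.35 (SE 0.12; adjusted p 0.381 in limma), with an adjusted p of 0.0223 with the C term and 0.143 with the letter as a block. Its difference was 0.21 within B and 0.34 within C.

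ADAMTS1 lies 72502 bases from ADAMTS5 on the same strand and gave a smaller difference in the same direction. It had 15132, 14679 and 13973 normalized reads with anti-miR-146a, against 12404 and 12946 in controls, with no overlap between the groups. The log2 fold change was 0.20 (SE 0.11; adjusted p 0.514 in limma, 0.0992 with the C term). The remaining tested proteoglycanases overlapped between the groups: ADAMTS4, another aggrecanase, had 4.56 to 18.2 normalized reads with anti-miR-146a and 9.54 to 10.3 in controls, and ADAMTS8 had 28.3 to 73.6 with anti-miR-146a and 34.5 to 71.6 in controls. Summed over the 19 ADAMTS genes, normalized reads were 20255, 19396 and 19858 with anti-miR-146a, against 16405 and 18678 in controls, so the groups did not overlap. Without ADAMTS1 the sums were 5123, 4717 and 5885 with anti-miR-146a and 4001 and 5732 in controls, and they overlapped.

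ADAMTS18 was the third member that rose with the C term. The gene (chromosome 16, 77247813 to 77435114, minus strand) encodes a secreted protease studied for its part in eye and lung development in mice. It had 87.8, 88.5 and 69.8 normalized reads in anti-miR-146a libraries A, B and C, against 51.5 and 33.6 in controls B and C. All anti-miR-146a libraries were above both controls, and the mean was 1.93 times theirs. The log2 fold change was 0.95 (SE 0.26; adjusted p 0.354 in limma), or 0.88 (SE 0.18; adjusted p 0.00632) with the C term, and the difference was 0.77 within B and 1.03 within C. The authors' deposited table gives ADAMTS18 a fold change of 1.93 with an adjusted p of 0.0514, and ADAMTS9 one of 1.54 with 0.101. ADAMTS18 is one of the members whose 3′ UTR held seed matches, shown above. Of the 9 tested members with a match, 3 had a log2 fold change above 0 and 6 below.

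ADAMTS6, which acts on fibrillin microfibrils together with its close relative ADAMTS10, fell with the C term. It had 295, 297 and 247 normalized reads in anti-miR-146a libraries A, B and C, against 387 and 319 in controls B and C. Every anti-miR-146a library of this gene, one of the pair with an 8mer, lay below both controls. Its log2 fold change was −0.33 (SE 0.16; adjusted p 0.483 in limma), or −0.38 (SE 0.11; adjusted p 0.0277) with the C term and an adjusted p of 0.109 with the letter as a block, and it was −0.38 within B and −0.37 within C. ADAMTS10 had 68.0, 82.1 and 58.7 normalized reads with anti-miR-146a, against 72.5 and 75.6 in controls, so its groups overlapped.

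Other ADAMTS genes did not pass in limma on all 5 libraries, with or without the C term. ADAMTS7, which degrades the cartilage protein COMP, had 436, 413 and 323 normalized reads with anti-miR-146a, against 317 and 284 in controls (log2 fold change 0.37, SE 0.17; adjusted p 0.471 in limma, 0.0585 with the C term), and its reads are uncertain because of the copies ADAMTS7P1, ADAMTS7P3 and ADAMTS7P4. ADAMTS13, the protease of von Willebrand factor made mainly in liver, had 41.5, 36.5 and 31.4 normalized reads with anti-miR-146a, against 16.2 and 29.9 in controls. Its groups did not overlap, but the log2 difference was 1.12 within B and only 0.07 within C. ADAMTS17 had 11, 4 and 11 reads with anti-miR-146a and 3 and 3 reads in controls (log2 fold change 1.17, SE 0.57). It passed the filter only through anti-miR-146a A and C. ADAMTS19 had 27.4, 27.4 and 17.2 normalized reads with anti-miR-146a, against 27.7 and 35.5 in controls. The tested ADAMTS-like genes ADAMTSL1, ADAMTSL4 and ADAMTSL5 had log2 fold changes of 0.22, 0.21 and 0.20 with overlapping groups. ADAMTSL4, which binds fibrillin-1 and supports the lens fibres, had 181 to 203 normalized reads with anti-miR-146a and 149 to 188 in controls.

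Seen as a family, the members did not move one way. No member passed in limma with the antagomir alone (0 of 32), and 0% of all 6317 tested genes did. With the same single term edgeR called 0 members and DESeq2 called ADAM32. At an unadjusted p under 0.05, 4 members (ADAM32, ADAMTS9, ADAMTS18 and ADAMTS5) and 11.3% of all tested genes were counted. With the C term 5 of 32 members passed (15.6%), against 15.4% of all tested genes. They were 3 higher members, against 8.64% of all tested genes, and 2 lower ones, against 6.79%. edgeR with that term called the same 5 members and 15.7% of all tested genes, and DESeq2 with it called ADAM32, ADAMTS5 and ADAMTS9 and 7.04% of the 5653 genes that it adjusted over; both of these fits were added after the data were seen. With the letter as a block ADAM32, ADAMTS9 and ADAMTS18 passed, as did 10.1% of all tested genes. Without both C libraries, which leaves 1 control, 12 of 29 members and 25.8% of the tested genes passed. In the authors' deposited table ADAM32 alone of 29 members with an adjusted p passes 0.05, where 2.57% of the rows with one do.

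The median log2 fold change was 0.00 over the 32 tested members and 0.00 over all tested genes, with 16 members higher and 16 lower. The anti-miR-146a and control libraries did not overlap for 11 members, against 30% of all tested genes. They were 7 members above controls (16.5% of all tested genes) and 4 below (13.5%). The members above controls were the ADAMTS genes ADAMTS1, ADAMTS5, ADAMTS7, ADAMTS9, ADAMTS13, ADAMTS17 and ADAMTS18. Of these, ADAMTS17 passed the filter only through anti-miR-146a libraries, so its place among them was favoured by the filter. ADAM11, whose groups overlapped, also passed only through such libraries. Those below controls were ADAM10, ADAM32, ADAMTS6 and ADAMTS19. The difference between the ADAM and ADAMTS branches was not tested.

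Members with a seed match had log2 fold changes on both sides of 0. Of the 9 tested members with a match, 3 had a log2 fold change above 0 and 6 below, with a median log2 fold change of −0.05. Of the 23 without a match, 13 had one above 0 and 10 below, with a median of 0.07. Of the 2 genes with an 8mer, ADAMTS6 was lower in every anti-miR-146a library and ADAM17 overlapped between the groups. These counts cover only members that passed the filter and are a description.

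**Figure D3:**
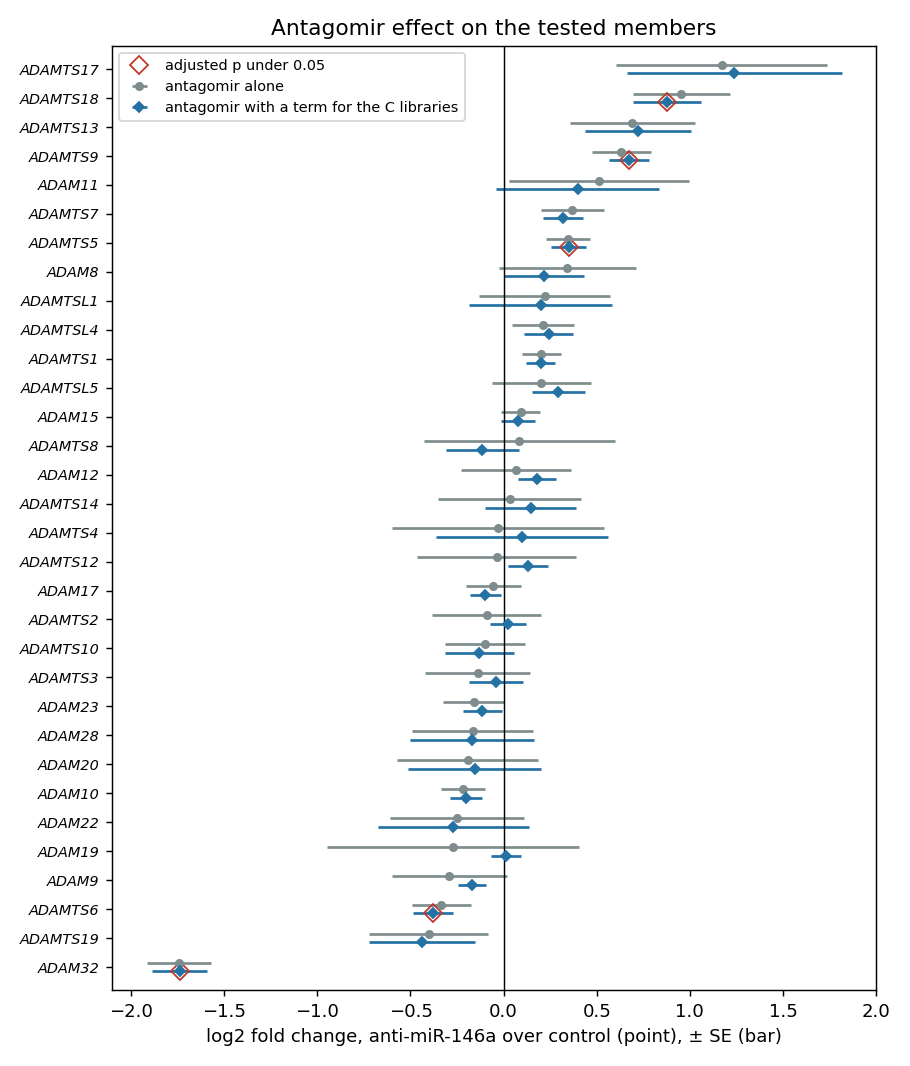
The log2 fold change of anti-miR-146a over control (point) with its SE (bar) for the 32 tested members, from the model with the antagomir alone (grey circles) and with a term for the C libraries (blue diamonds); red outlines mark an adjusted p under 0.05. ADAM32 lies at −1.74, and the next largest change is 1.17 in ADAMTS17 with wide error. ADAMTS17 passed the filter only through anti-miR-146a libraries. Outlines mark 5 members.

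The 2 within-letter comparisons use different libraries and could be set beside each other. Of the 32 members, 19 had the same sign in both pairs (59.4%), against 66% of all tested genes. Across the 32 genes the differences of the B pair and the C pair correlated at r = 0.405, and at 0.151 without ADAM32, while r was 0.417 across all 6317 tested genes. These are correlations across genes of 4 libraries and carry no test. ADAM32, ADAMTS6, ADAMTS5, ADAMTS9 and ADAMTS18 kept their sign in both pairs. Their groups did not overlap, which fixes a shared sign in advance. ADAMTS4, ADAM20 and ADAM28, each with few reads, were among those that changed sign, and so were the more abundant ADAM12, ADAM17, ADAM19, ADAMTS2, ADAMTS10 and ADAMTS12.

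**Figure D4:**
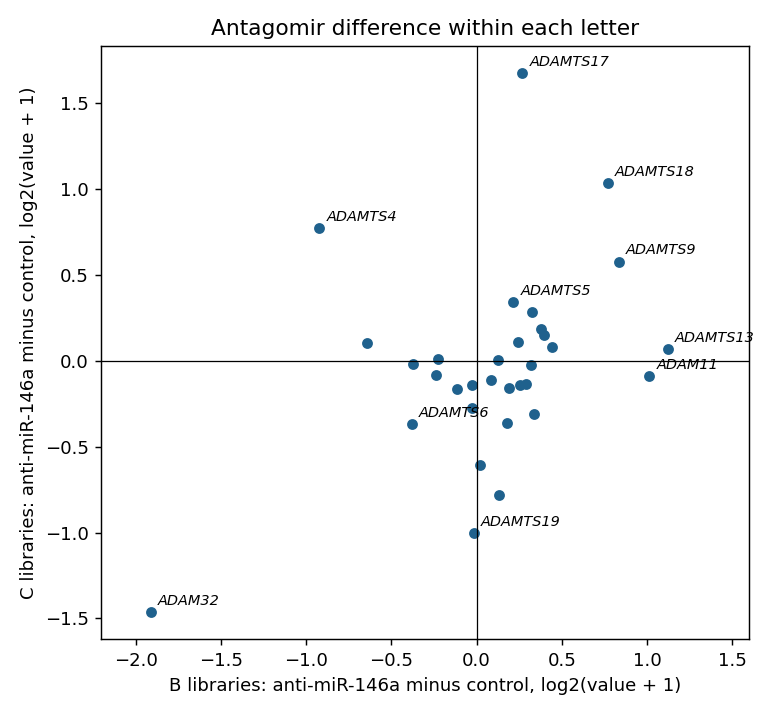
The difference of anti-miR-146a minus control on the log2(value + 1) scale within the B libraries (x axis) and within the C libraries (y axis), with 1 point per tested member. ADAM32 stands alone at −1.91 and −1.46, and ADAMTS9 and ADAMTS18 lie above 0 on both axes.

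Several abundant members differed more between the C libraries and the others than between the antagomirs. ADAM19 had 6884 normalized reads in anti-miR-146a C and 7448 in control C. The remaining libraries held 2290 and 2229 in anti-miR-146a A and B and 2099 in control B, so that the C libraries averaged 3.25 times the others (C-library difference 1.70, SE 0.08, log2). Its antagomir effect with the C term was 0.01 (SE 0.08). ADAMTS12, which like ADAMTS7 acts on COMP, had 1812 normalized reads in anti-miR-146a C and 1997 in control C, against 1091, 973 and 816 in anti-miR-146a A, anti-miR-146a B and control B. ADAM9 and ADAM12 were likewise higher in both C libraries, by 0.74 (SE 0.08) and 0.68 (SE 0.10) on the log2 scale.

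All 3 procollagen N-propeptidases, which trim fibrillar collagens before fibril assembly, were higher in both C libraries. ADAMTS2 had 958 normalized reads in anti-miR-146a C and 1068 in control C, and 588 to 671 in the others. ADAMTS3 and ADAMTS14 were higher by 0.59 (SE 0.14) and 0.68 (SE 0.24) on the log2 scale. Lower in both C libraries were ADAMTS8, with 28.3 and 34.5 normalized reads in the C libraries and 70.3 to 73.6 in the others, and ADAM8, with 28.9 to 35.4 in the C libraries and 51.5 to 64.8 in the others. ADAM17 was lower too, with 1835 and 1826 in the C libraries and 2023 to 2365 in the others (C-library difference −0.27, SE 0.08, log2). So were ADAM15, by a C-library difference of only −0.09 (SE 0.09), and ADAM11, which had few reads. In all, both C libraries lay above the other 3 for 9 members (24.3% of all tested genes) and below them for 5 (20.3% of all tested genes). Together these are 43.8% of the tested members, against 44.6% of all tested genes. The split was seen in these data and is described without a test, and no label says what the letter C stands for.

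**Figure D5:**
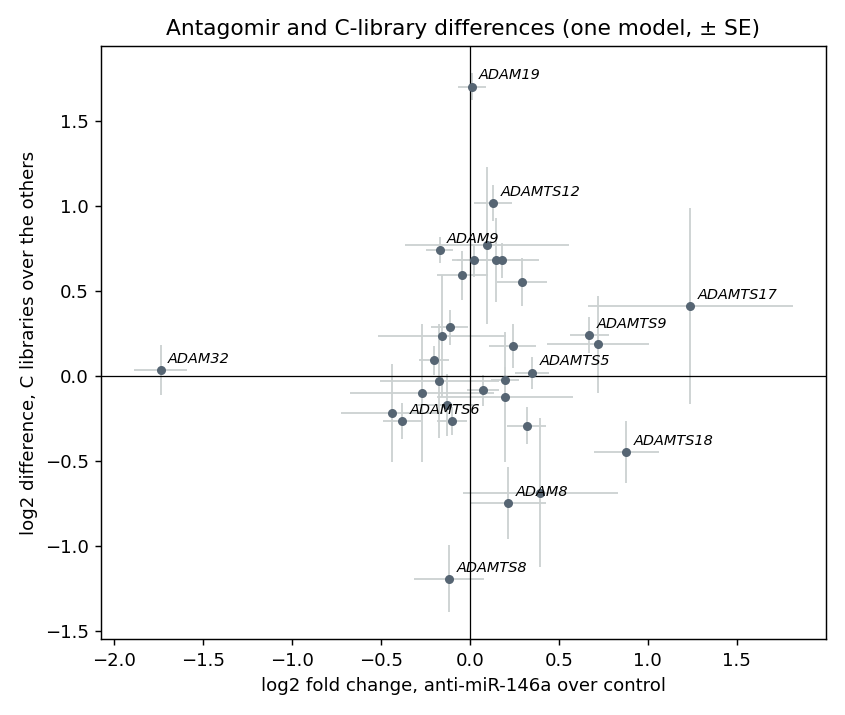
Antagomir effect (x axis, log2 fold change of anti-miR-146a over control) and C-library difference (y axis, log2) from a single model for the 32 tested members, with bars of 1 SE. ADAM19 and ADAMTS12 lie high at 1.70 and 1.02 on the y axis near 0 on the x axis, and ADAM32 lies at −1.74 on the x axis near 0 on the y axis.

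Substrates of ADAM10 and ADAM17 differed in both directions. This list and those below were drawn up with earlier results of these data known, so their shares are a description. Of 44 listed genes 20 were tested. In limma with the antagomir alone 0 passed, 5 had an unadjusted p under 0.05 (25%, against 11.3% of all tested genes), DESeq2 called DLL4 and edgeR called none, and 3 rose and 2 fell with the C term (25% against 15.4% of all tested genes). DLL4, a Notch ligand, had 2045, 1954 and 1442 normalized reads in anti-miR-146a libraries A, B and C, against 833 and 842 in controls B and C (log2 fold change 1.05, SE 0.10, adjusted p 5.0e-05 in limma with the C term). DLL1, another Notch ligand, had 41.5, 42.0 and 55.6 with anti-miR-146a, against 29.6 and 25.2 in controls (adjusted p 0.0435 in the same fit, 0.0579 with the letter as a block). HBEGF, a ligand of the EGF receptor that needs shedding to act at a distance, had 708, 732 and 1317 normalized reads with anti-miR-146a, against 1281 and 2329 in controls. Its groups overlapped, but its log2 difference was −0.81 within B and −0.82 within C, and it fell with the C term (adjusted p 5.9e-05 in limma). EGF, which also needs cutting from its membrane precursor, had 7.55, 4.56 and 8.09 normalized reads with anti-miR-146a, against 20.0 and 20.5 in controls. It fell with the C term (adjusted p 0.0263 in limma). EGF passed the filter only through the controls, so its place in the counts of this list was favoured by the filter. The receptor tyrosine kinase gene AXL had 8340, 8333 and 7108 normalized reads with anti-miR-146a, against 6377 and 6204 in controls, and rose with the C term (adjusted p 0.0177 in limma, 0.0853 with the letter as a block). The most abundant substrates, CD44 and APP, had log2 fold changes of −0.10 (SE 0.20) and −0.11 (SE 0.17).

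Substrates of the ADAMTS proteases showed little antagomir difference. Of 22 listed genes 10 were tested, 0 passed in limma with the antagomir alone (0 at an unadjusted p under 0.05) and 1, the collagen gene COL5A1, rose with the C term (10% of the list, against 15.4% of all tested genes). COL5A1 had 3519, 3760 and 6556 normalized reads in anti-miR-146a libraries A, B and C, against 2514 and 5717 in controls B and C. Its groups overlapped, with a log2 fold change of 0.22 (SE 0.41, adjusted p 0.875 in limma). With the C term the log2 fold change was 0.39 (SE 0.09, adjusted p 0.00986), below its C-library difference of 0.99 (SE 0.09). Both C libraries lay above the other 3 for 8 of the 10 genes, against 24.3% of all tested genes, and below them for 1, against 20.3%. FN1 and COL1A1, the most abundant, had log2 fold changes of 0.01 (SE 0.19) and −0.01 (SE 0.28). Of 26 listed regulators of these proteases 9 were tested, and 1 rose with the C term (11.1%, against 15.4% of all tested genes called in either direction): FRMD8, which stabilises the iRhom proteins that carry ADAM17 to the cell surface. FRMD8 had 905, 902 and 843 normalized reads with anti-miR-146a, against 712 and 672 in controls (log2 fold change 0.35, SE 0.10; adjusted p 0.357 in limma, 0.0188 with the C term and 0.0852 with the letter as a block). The tetraspanin genes CD81 and CD151 were the most abundant regulators, with log2 fold changes of −0.05 (SE 0.14) and −0.03 (SE 0.15). The TIMP inhibitors were not analysed here.

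Other extracellular and cell surface proteases gave 13 tested of 28 listed genes. None passed in limma with the antagomir alone (0 at an unadjusted p under 0.05). With the C term the dipeptidyl peptidase DPP4, a surface protein of senescent fibroblasts, rose and the cathepsin CTSZ fell. That is 15.4% of the list and 15.4% of all tested genes. Both calls were lost with the letter as a block (adjusted p 0.232 for DPP4 and 0.196 for CTSZ in limma). CTSB, the most abundant, had 28041, 28359 and 39162 normalized reads in anti-miR-146a libraries A, B and C, against 25795 and 39448 in controls B and C. ECE1, the endothelin-converting enzyme, had a log2 fold change of 0.14 (SE 0.22). Both C libraries lay above the other 3 for 7 of these 13 genes, against 24.3% of all tested genes, and below them for 2, against 20.3%.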

How the data were processed

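Libraries were made from total RNA after ribosomal RNA was depleted, per the labels' protocols, and cells were harvested after the transfection. Per the submitters' processing notes, Trimmomatic 0.35, STAR 2.5.1b and DESeq2 1.22.2 were used with GRCh38. The read counter, its strand setting and its annotation are not given in these sources. For every gene and library the authors deposited a signal, the read count divided by a size factor. All of these values (100%) were whole multiples of their column's smallest step within 1e-06, which gave the reads back. The authors also deposited a fold change (a linear ratio) with its p-value. Each column was matched to its antagomir, and its letter is in no label. The table as used here holds part of the experiment's genes, so shares of all tested genes are shares of that part.

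Genes with at least 10 normalized reads in 2 libraries (6317) were tested with limma 3.58.1 (trend) on log2(value + 1), which understates changes of low genes, with Benjamini-Hochberg adjustment over all of them and a threshold of 0.05. edgeR 4.0.16 and DESeq2 1.42.0 (R 4.3.3) on recovered reads were alternatives, as were the filter, pseudocount, scaling, left-out libraries, the letter as a block and a term for the C libraries. Fits were tested on simulated counts. Members, lists and the C term were chosen with earlier results of these data known. Every member was accounted for. Those with an unadjusted p under 0.05, ADAM32 and those that passed with the C term have their values in full. From each list the text names the genes that passed, else the 2 most abundant and up to 3 with the smallest unadjusted p under 0.05; genes past the threshold with the C term were added after their values were seen. Exon lengths, strands and 3′ UTRs came from GENCODE 29, which placed all 17390 rows that share its versioned gene ID at the deposited position. Reads of members that overlap an antisense gene (ADAMTS9, ADAMTS19, ADAMTSL4) cannot be told from that gene's without strand.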

Additional observations from a re-analysis of the deposited data

How the results depend on the processing

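On all 5 libraries with the antagomir as the only term, edgeR (either scaling), limma voom, the stricter filter, both other thresholds (0.01 and 0.10) and both pseudocounts (0.1 and 5) gave 0 genes, as in limma. DESeq2 called 42 genes, 1 member and 1 listed gene (DLL4), with ADAM32 at −1.76. With no filter 158 genes and 1 member passed (ADAM32, −1.74). The letter as a replicate block gave 636 genes, 3 members and 4 listed genes (DLL4, EGF, HBEGF and COL5A1; ADAM32 −1.69), the C term 975, 5 and 9 (−1.74), the same term in edgeR 993, 5 and 9 (−1.76) and in DESeq2 398, 3 and 4 (−1.76), and leaving out both C libraries, which leaves 1 control, 1568, 12 and 13 (−1.94). The C term in edgeR and DESeq2 was added after the data were seen. Among the listed genes, EGF passed the filter only through the controls. Leaving out 1 library gave 0 to 12 genes, 0 to 1 member and 0 to 1 listed gene, with calls only where anti-miR-146a C was left out, and −1.86 to −1.62 for ADAM32. A lone control is assumed to vary like the other libraries. The block was tried because letters are shared by both groups. Same-lettered libraries deviated together (r across genes 0.505 for B and 0.661 for C), but anti-miR-146a A and control B did so too (0.532). Deviations were taken from group means, so those of controls B and C are exact opposites. The B value is therefore not separate from the C split. No label says that a letter marks a shared culture.

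Among the 32 members' log2 fold changes, 464 values under alternatives kept their direction and side of the threshold, 30 kept the direction and passed it, and 57 changed direction. Changes of direction with a C term in limma, edgeR and DESeq2 were 0.012, 0.00875 and 0.00859 for ADAM19, 0.13, 0.12 and 0.12 for ADAMTS12, 0.023, 0.016 and 0.018 for ADAMTS2 and −0.11, −0.077 and −0.10 for ADAMTS8, and for ADAMTS4 they were 0.098 in limma and 0.27 in edgeR. With the letter block they were 0.056 for ADAMTS12, 0.016 for ADAMTS2 and −0.15 for ADAMTS8. Without both C libraries they were 0.11 for ADAM19, 0.31 for ADAM20, 0.16 for ADAM28, 0.042 for ADAMTS10, 0.34 for ADAMTS12, 0.16 for ADAMTS2 and 0.036 for ADAMTS3. With edgeR, DESeq2 and edgeR with TMM, ADAMTS14 had −0.067, −0.066 and −0.076 and ADAMTS4 0.14, 0.15 and 0.13, and ADAMTS4 had 0.015 with a pseudocount of 5. Leaving out 1 library gave ranges across 0 for ADAM8 (−0.065 to 0.75), ADAM9 (−0.62 to 0.035), ADAM12 (−0.38 to 0.51), ADAM17 (−0.24 to 0.13), ADAM19 (−1.18 to 0.64), ADAM20 (−0.62 to 0.24), ADAM23 (−0.33 to 0.00781), ADAM28 (−0.37 to 0.036), ADAMTS2 (−0.52 to 0.34), ADAMTS3 (−0.49 to 0.21), ADAMTS4 (−0.45 to 0.44), ADAMTS8 (−0.43 to 0.60), ADAMTS10 (−0.23 to 0.013), ADAMTS12 (−0.68 to 0.61), ADAMTS14 (−0.54 to 0.60) and ADAMTSL5 (−0.14 to 0.55). The cause was not tested. The median over the members ranged from −0.13 to 0.23, and both C libraries stood apart for 12 of 22 members with at least 50 reads in 2 libraries (also added later), against 14 of 32. Counting only 8mers left 2 members with a seed match in place of 10. Members under about 20 reads have too few counts to show any but large changes.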

Other observations

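Antisense and pseudogene rows of the family, which are no members, were 12. ADAMTSL4-AS1 averaged 157 ± 16.7 normalized reads with anti-miR-146a and 132 ± 14.6 in controls (SD, n = 3 and n = 2). ADAMTS9-AS2 had 67.0, 68.5 and 41.5 normalized reads in anti-miR-146a libraries A, B and C, against 69.7 and 38.2 in controls B and C, so it was lower in both C libraries, while ADAMTS9 was not. ADAM20P1 had 9.44 to 11.1 normalized reads with anti-miR-146a and 4.77 to 11.2 in controls. The other pseudogene and antisense rows had at most 10.3 normalized reads in any library.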
